A study of Homo sapiens with 6 samples.

Results

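The genes described here are 10 immediate early genes, chosen by symbol from a list: FOS, FOSB, JUN, JUNB and JUND of the AP-1 family, EGR1, EGR2 and EGR3 of the early growth response family, and IER2 and DUSP2. All 10 were found, 1 row each, among the 25277 gene rows of the deposited table. They were followed across 6 RNA-seq libraries of Jeko and Rec-1, established human lines of mantle cell lymphoma, a cancer of B cells. Each line carried Cas9 in a tet-on vector, and per the labels every culture, controls included, was kept in medium with 20% serum and received doxycycline for 48 h. Each line gave 1 empty-vector control and 2 libraries with different single guide RNAs (sgRNA 1 and sgRNA 2) against NR4A1, a nuclear receptor gene that is itself an immediate early gene. The labels do not say whether the stable lines were clones or pools, nor that guides of the same number share a sequence between the lines.

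Immediate early genes are switched on without new protein synthesis when a growth factor, or in B cells the antigen receptor, activates MAP kinases. Those kinases act on factors already bound at the promoters, such as SRF with its ELK partners at CArG boxes and CREB at cAMP response elements. Their mRNAs are short-lived, so their level follows recent signalling. FOS and FOSB pair with JUN, JUNB or JUND to form AP-1, the EGR proteins are zinc-finger factors that bind GC-rich sites, and DUSP2 is a nuclear phosphatase that inactivates MAP kinases.

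The promoters of EGR1 and FOS are printed because these 2 genes differed most between libraries on the log2(FPKM + 1) scale used below, and that of JUND because its levels were ordered otherwise. RefSeq starts were found for 9 of the 10 genes (table build GRCh38.p14), and the 250 bases before each of the 9 matched GRCh37 once. Capitals mark the motifs searched on both strands. These were the CArG box by name, the cAMP response element TGACGTCA, the AP-1 site TGANTCA, the EGR site GCGNGGGCG and the TATA sequence TATAAA.
EGR1, chr5:137800918-137801167, plus strand: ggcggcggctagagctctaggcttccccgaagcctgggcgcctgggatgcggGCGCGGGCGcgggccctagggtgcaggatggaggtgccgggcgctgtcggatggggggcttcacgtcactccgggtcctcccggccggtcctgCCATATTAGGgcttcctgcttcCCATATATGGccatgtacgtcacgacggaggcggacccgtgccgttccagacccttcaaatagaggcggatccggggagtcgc
FOS, chr14:75745281-75745530, plus strand: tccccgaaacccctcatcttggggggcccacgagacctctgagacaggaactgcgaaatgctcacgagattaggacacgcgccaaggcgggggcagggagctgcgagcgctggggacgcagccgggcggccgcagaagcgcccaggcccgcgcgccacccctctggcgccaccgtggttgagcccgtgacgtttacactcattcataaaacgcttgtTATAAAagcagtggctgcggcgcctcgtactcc
JUND, chr19:18392433-18392682, minus strand: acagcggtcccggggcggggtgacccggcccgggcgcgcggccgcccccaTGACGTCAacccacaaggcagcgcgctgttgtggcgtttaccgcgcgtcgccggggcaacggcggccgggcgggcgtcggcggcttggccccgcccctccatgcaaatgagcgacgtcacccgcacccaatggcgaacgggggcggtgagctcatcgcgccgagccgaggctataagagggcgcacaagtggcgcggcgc
The EGR1 window holds 2 CArG boxes, CCATATTAGG from 105 to 96 bases before the start and CCATATATGG from 83 to 74 bases before it. A CArG box occurs in 1.16% of 35116 RefSeq promoter windows of this length, and EGR1 was the only 1 of the 9 genes with a match. The EGR1 window also has 1 EGR site and that of DUSP2 has 2, a motif found in 8.41% of all windows. JUND alone of the 9 has the full cAMP response element (1.65% of windows), 200 to 193 bases before its start. TATAAA was found in FOS, FOSB and JUNB (10.7% of windows), and no AP-1 site was found in the 9 windows (6.57% of all). A match describes letters, and its absence says only that they are not in this window.

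Values are FPKM as the authors deposited them, which scales a gene's fragments to transcript length and to library size. They can therefore be compared between genes. NR4A1 (chromosome 12, 52416616 to 52453291, GRCh37) had 5.99 FPKM in the Jeko control, 3.89 in Jeko sgRNA 1 and 4.44 in Jeko sgRNA 2. It had 11.6 in the library labelled Rec-1 control, 27.4 in that labelled Rec-1 sgRNA 1 and 12.7 in that labelled Rec-1 sgRNA 2. In Rec-1 as labelled, the targeted mRNA was thus not lower with sgRNA, and directions there rest on the labels. In Jeko it was lower in both sgRNA libraries, but this difference did not pass the test given below. The B-cell markers MS4A1, CD79A, CD79B, PAX5 and CD22 were present in all 6 libraries, with summed levels of 572 to 1013 FPKM. The library labelled Rec-1 control stood with the Jeko libraries. Across 9696 tested protein-coding genes it correlated with the Jeko control at r = 0.989 (Pearson), but at 0.805 with Rec-1 sgRNA 1 and 0.812 with Rec-1 sgRNA 2 as labelled. CCND1, the cyclin gene that defines most mantle cell lymphoma, lay between 442 and 815 FPKM in those 4 libraries and at 0.696 and 0.592 in the 2 labelled Rec-1 sgRNA. A list of 4 T-cell markers summed to between 0.723 and 1.42 FPKM in the former and to 71.5 and 101 in the latter, made up of CD3D (66.3 and 95.3) and CD3E (5.19 and 5.80, against at most 0.531 in the other 4), with CD2 at 0.0288 and 0 and CD8A at 0 in both. The plasma cell markers SDC1, PRDM1 and IRF4 summed to between 92.8 and 125 FPKM in the former and to 30.8 and 27.9 in the latter. Lists for myeloid (3 genes), epithelial (2) and fibroblast (2) cells summed to at most 1.97, 0.661 and 3.37 FPKM in any library. Every comparison of Rec-1 sgRNA with its labelled control or with Jeko sgRNA includes these differences, and their part in the results was not tested. The latter does not use the library labelled Rec-1 control.

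FOS, the founding partner of JUN in AP-1 (chromosome 14, 75745529 to 75748933, plus strand), showed a wide split. The Jeko control had 1.05 FPKM, Jeko sgRNA 1 had 17.3 and Jeko sgRNA 2 had 15.4. It was 19.1 FPKM in the library labelled Rec-1 control and 1.47 and 1.55 in those labelled Rec-1 sgRNA 1 and 2. High levels were thus found in both Jeko sgRNA libraries and in the labelled Rec-1 control, and low levels in the other 3. This split was read from the FOS values and follows no label. The share of all genes with the same 3 libraries highest was not computed. In ratios of FPKM, Jeko sgRNA 1 and 2 stood 16.5-fold and 14.7-fold above their control, while the labelled Rec-1 control stood 13.0-fold and 12.3-fold above its 2 sgRNA libraries.

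FOSB, its close relative (chromosome 19, 45971253 to 45978437, plus strand), was ordered otherwise. It was scarce in the Jeko control (0.123 FPKM), Jeko sgRNA 1 (0.269), Jeko sgRNA 2 (0.304) and the library labelled Rec-1 control (0.406), and highest in those labelled Rec-1 sgRNA 1 (1.54) and 2 (2.16). The 2 libraries labelled Rec-1 sgRNA were above the other 4, the reverse of their place for FOS. FOS thus made up 89.5% of the summed FOS and FOSB level in the Jeko control, 98.5% and 98.1% in Jeko sgRNA 1 and 2, 97.9% in the library labelled Rec-1 control, and 48.9% and 41.9% in those labelled Rec-1 sgRNA 1 and 2.

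**Figure D1:**
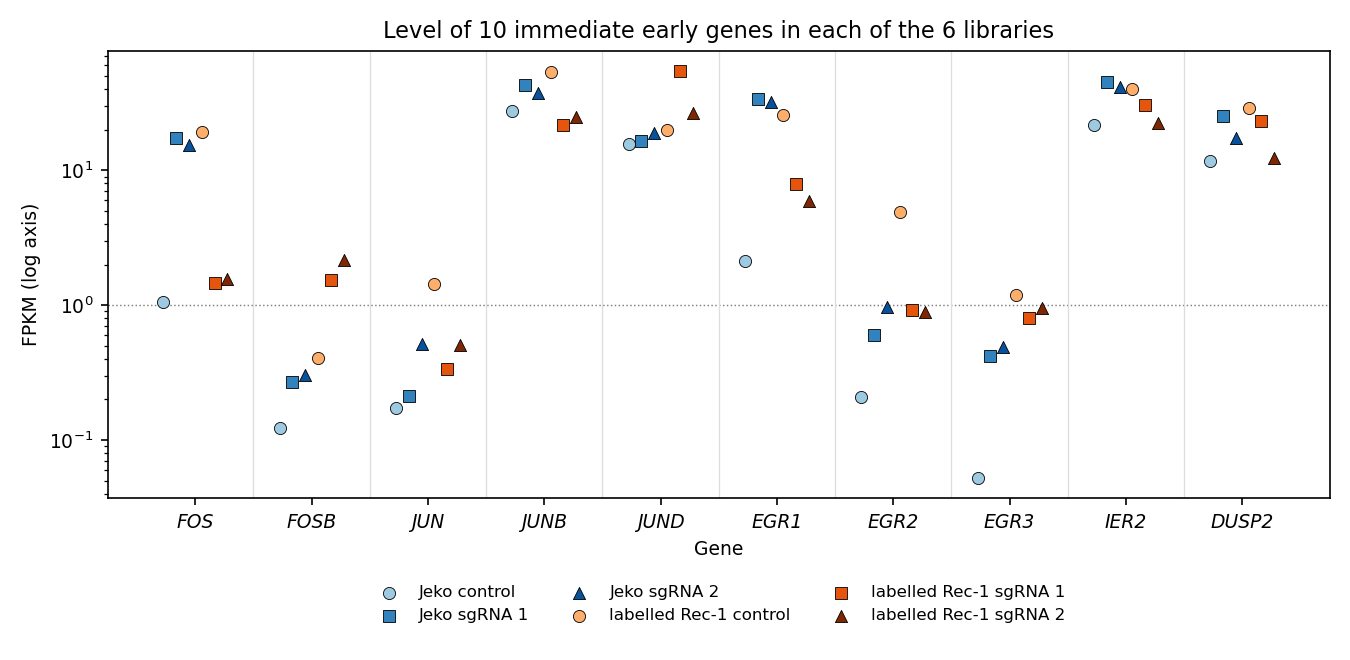
FPKM of the 10 genes on a log axis, 1 point for each of the 6 libraries, coloured by library; the dotted line marks 1 FPKM. FOS and EGR1 separate Jeko sgRNA 1, Jeko sgRNA 2 and the library labelled Rec-1 control from the other 3 libraries, while FOSB and JUND are highest in those labelled Rec-1 sgRNA.

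Among the Jun genes, JUN itself, the strongest activator of the 3 (chromosome 1, 59242517 to 59249720, minus strand), was nearly silent. Its levels were 0.173, 0.213 and 0.517 FPKM in the Jeko control, sgRNA 1 and sgRNA 2, and 1.44, 0.338 and 0.505 in the libraries labelled Rec-1 control, sgRNA 1 and sgRNA 2. Only the library labelled Rec-1 control stood above 1 FPKM.

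JUNB (chromosome 19, 12902300 to 12904129, plus strand), which can oppose JUN, was the most abundant Jun gene in the 3 Jeko libraries and in the library labelled Rec-1 control. The Jeko control had 27.5 FPKM, Jeko sgRNA 1 had 43.2 and Jeko sgRNA 2 had 37.5, and the library labelled Rec-1 control had 53.8 against 21.6 and 24.99 in those labelled Rec-1 sgRNA 1 and 2. The 3 libraries high in FOS were also the 3 highest here, over a smaller range, and the Jeko control lay above both libraries labelled Rec-1 sgRNA.

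JUND (chromosome 19, 18390504 to 18392432, minus strand), the Jun gene usually expressed without a stimulus, was 15.7, 16.4 and 18.8 FPKM in the Jeko control, sgRNA 1 and sgRNA 2. It was 20.1 FPKM in the library labelled Rec-1 control, 54.5 in that labelled Rec-1 sgRNA 1 and 26.6 in that labelled Rec-1 sgRNA 2. JUND was the only tested member at least 2-fold apart between the Rec-1 guides (3.88% of all genes were), while 0 were between the Jeko guides (4.68%), and both Rec-1 guides were above the other 4 libraries. JUND supplied 36.3%, 27.5% and 33.1% of the summed JUN, JUNB and JUND level in the Jeko control, sgRNA 1 and sgRNA 2, and 26.6%, 71.3% and 51.1% in the libraries labelled Rec-1 control, sgRNA 1 and sgRNA 2. The sum itself ranged only from 43.4 FPKM (Jeko control) to 76.4 (labelled Rec-1 sgRNA 1).

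**Figure D2:**
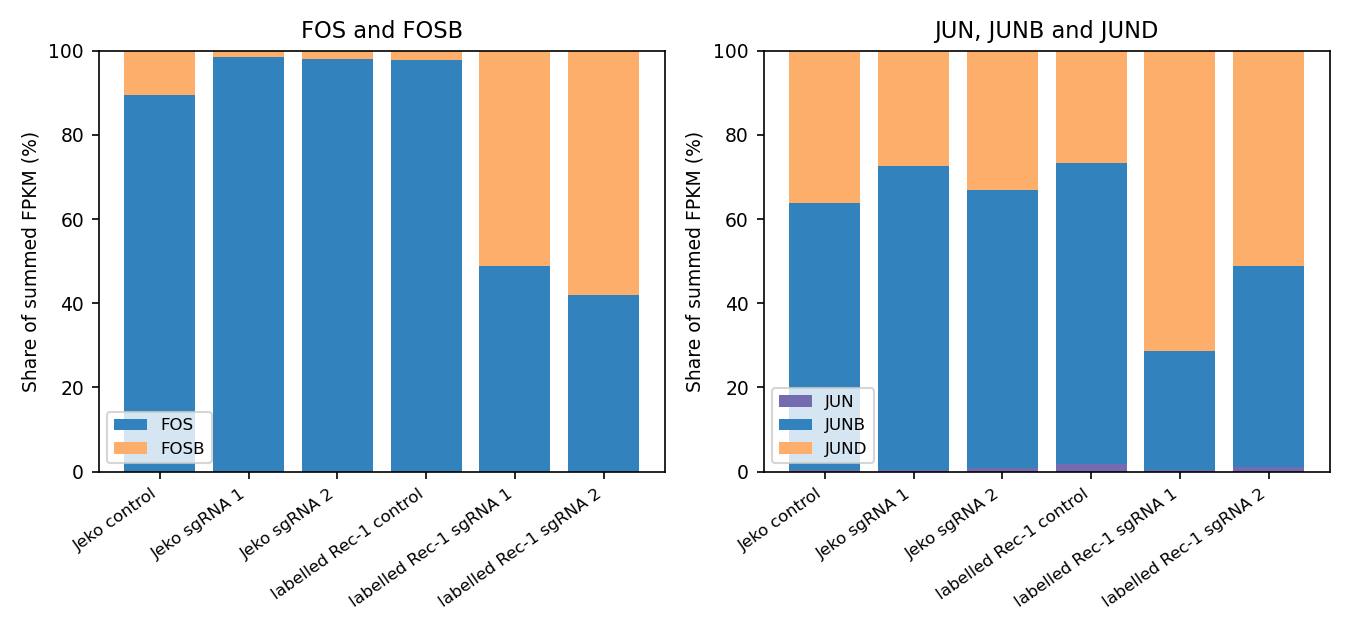
Share in percent of the summed FPKM of FOS and FOSB (left) and of JUN, JUNB and JUND (right), 1 stacked bar for each library. FOS holds 89.5% or more of its pair in the 3 Jeko libraries and that labelled Rec-1 control but 48.9% and 41.9% in those labelled Rec-1 sgRNA, where JUND holds 71.3% and 51.1% of the Jun sum.

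EGR1 (chromosome 5, 137801168 to 137804992, plus strand), the most abundant EGR gene in all 6 libraries, repeated the split of FOS. The Jeko control had 2.12 FPKM, against 33.7 in Jeko sgRNA 1 and 32.0 in Jeko sgRNA 2. It was 25.7 FPKM in the library labelled Rec-1 control and 7.96 and 5.95 in those labelled Rec-1 sgRNA 1 and 2. The 3 libraries high in FOS were the 3 highest here, and Jeko sgRNA 1 and 2 stood 15.9-fold and 15.1-fold above their control.

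EGR2 and EGR3, which in lymphocytes also act in negative feedback, were low. EGR2 (chromosome 10, 64571756 to 64578927, minus strand) was 0.209, 0.599 and 0.973 FPKM in the Jeko control, sgRNA 1 and sgRNA 2 and 4.95, 0.919 and 0.893 in the libraries labelled Rec-1 control, sgRNA 1 and sgRNA 2. It passed the filter on low values only through the library labelled Rec-1 control. EGR3 (chromosome 8, 22545172 to 22550993, minus strand) was 0.0522, 0.419 and 0.492 FPKM in the 3 Jeko libraries in the same order and 1.19, 0.806 and 0.955 in those labelled Rec-1. Both genes were lowest in the Jeko control and highest in the labelled Rec-1 control, with all 4 sgRNA libraries between.

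IER2, a short-lived nuclear regulator of transcription (chromosome 19, 13261225 to 13265725, plus strand), was 21.8, 45.0 and 41.9 FPKM in the Jeko control, sgRNA 1 and sgRNA 2. It was 40.2, 30.8 and 22.4 FPKM in the libraries labelled Rec-1 control, sgRNA 1 and sgRNA 2. The 3 libraries high in FOS were again the 3 highest.

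DUSP2 (chromosome 2, 96808908 to 96811179, minus strand) was 11.7, 25.5 and 17.5 FPKM in the 3 Jeko libraries and 28.9, 23.3 and 12.3 FPKM in those labelled Rec-1, in the same order. The guides of each line differed more for DUSP2 than for FOS or EGR1, and here the sgRNA libraries of the 2 lines overlapped.

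The fragments behind some of these values can be read from the table. In 4 libraries the worth of 1 fragment relative to the Jeko control could be taken from genes with very low FPKM, giving depths of 0.872 (Jeko sgRNA 1), 1.10 (Jeko sgRNA 2), 1.10 (labelled Rec-1 control) and 0.687 (labelled Rec-1 sgRNA 2) times that of the Jeko control. For the library labelled Rec-1 sgRNA 1 no such step was found. With these ratios, 7 of the 10 genes had values within 0.01 of whole fragments in all 5 libraries, and FOSB, EGR2 and EGR3 did not. The numbers are the smallest that fit, and the true ones may be multiples of them. FOS rested on 53 fragments in the Jeko control (95% Poisson interval 39.7 to 69.3), 762 and 861 in Jeko sgRNA 1 and 2, 1063 in the library labelled Rec-1 control and 54 in that labelled Rec-1 sgRNA 2 (40.6 to 70.5). EGR1 rested on 161 fragments (137 to 188), 2233, 2676, 2142 and 310 (276 to 347) in the same libraries. The intervals of the low and high libraries were far apart for both genes, though they cover counting error only. JUN rested on 14, 15, 46, 128 and 28 fragments, so the Jeko control (7.65 to 23.5) and Jeko sgRNA 1 (8.40 to 24.7) could not be told apart at this depth. For JUNB, JUND, IER2 and DUSP2 the smallest number was 324 fragments (DUSP2, labelled Rec-1 sgRNA 2).

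Differences were computed on the scale of log2(FPKM + 1), which understates the change of low genes, and with 1 control for each line a single library against its control has no replicate check. Relative to the Jeko control, all 10 genes were higher in Jeko sgRNA 1 (median difference 0.53) and in Jeko sgRNA 2 (median 0.52). These 10 include FOSB, JUN and EGR3, which were under the filter on low values. For the 7 members tested the medians were 1.01 and 0.71. The median of all 11400 genes tested was 0.00 in both, and 36.9% of them were higher than the Jeko control in both. The 2 guides share that control, so their differences are not independent of each other. FOS differed by 3.16 and 3.01, EGR1 by 3.48 and 3.40, IER2 by 1.01 and 0.91 and DUSP2 by 1.06 and 0.54. JUND (0.06 and 0.24), JUN (0.05 and 0.37) and FOSB (0.18 and 0.22) were closest to no difference, and JUN in sgRNA 1 was within counting error of its control. Of the 7 genes that passed the filter on low values (mean of 1 FPKM or more), 4 were at least 2-fold apart from the control in Jeko sgRNA 1 (FOS, EGR1, IER2 and DUSP2) and 2 in Jeko sgRNA 2 (FOS and EGR1). Of all genes tested, 6.18% and 7.48% were.

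In the libraries labelled Rec-1 the signs were mostly opposite. Relative to the labelled control, 8 of the 10 genes were lower in sgRNA 1 (median difference −0.62) and in sgRNA 2 (median −0.95), and FOSB and JUND were higher in both. Of all genes tested, which leave out FOSB, JUN and EGR3, 43.1% were lower in both. FOS differed by −3.02 and −2.98, EGR2 by −1.63 and −1.65, EGR1 by −1.57 and −1.94 and JUNB by −1.28 and −1.08. FOSB differed by 0.85 and 1.17, and JUND by 1.40 and 0.39. Leaving out EGR2, which passed the filter through that control, 4 of the other 6 genes tested were at least 2-fold apart from the labelled control in each library, but so were 30.4% and 29.4% of all genes tested. The 4 members were FOS, EGR1 and JUNB (lower) with JUND (higher) in sgRNA 1, and FOS, EGR1, JUNB and DUSP2 (all lower) in sgRNA 2.

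**Figure D3:**
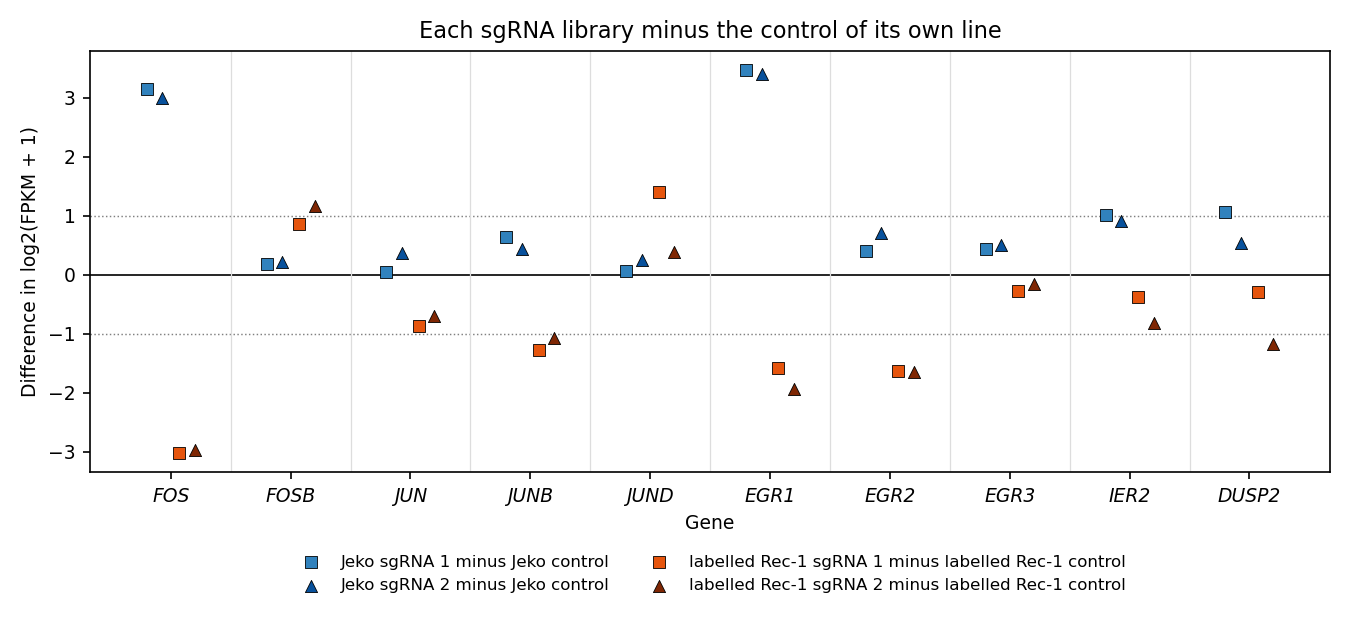
Difference in log2(FPKM + 1) between each sgRNA library and the control of its own line, 1 point for each of the 4 libraries; dotted lines mark 2-fold. All points of Jeko lie above 0, and those of the libraries labelled Rec-1 lie below 0 except for FOSB and JUND.

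The spread between guides allowed a test. limma was fitted with a mean for each line and condition, on all 11400 genes, and the lone control of each line was assumed to vary like the guides. The Jeko guides differed from each other by −0.15 for FOS and −0.07 for EGR1. The 2 controls, of different lines as labelled, differed by 3.30 and 3.09. An SE taken from the guides may thus understate the spread of a control, which was not tested. Nothing states that the libraries came from separate cultures, so p-values measure only the spread between these libraries. FOSB, JUN and EGR3 were under the filter of 1 FPKM on the mean and were not tested. In Jeko sgRNA against the Jeko control, FOS rose by 3.08 (SE 0.19, limma adjusted p = 0.0200) and EGR1 rose by 3.44 (SE 0.25, limma adjusted p = 0.0346), both in 2 of 2 libraries. The fit called 50 of the 11400 genes, 0.439% (0.149% as higher), and of these only 3 were protein-coding, FOS, EGR1 and RPS4Y1. By size, EGR1 ranked 2 and FOS 3 from the highest difference among 9696 protein-coding genes, and 65 and 78 among all 11400. IER2 (0.96, SE 0.28, limma adjusted p = 0.397), DUSP2 (0.80, SE 0.48, adjusted p = 0.551), EGR2 (0.56, SE 0.20, adjusted p = 0.441), JUNB (0.54, SE 0.23, adjusted p = 0.472) and JUND (0.15, SE 0.48, adjusted p = 0.929) did not pass. Nor did NR4A1, the targeted gene (−0.44, SE 0.49, limma adjusted p = 0.748). The calls of FOS and EGR1 were lost without the filter on low values (limma adjusted p = 0.0722 for FOS and 0.0950 for EGR1) and with a replicate block for the guide number (0.0688 and 0.0686). They were also lost when any of the 4 sgRNA libraries was left out, though the differences themselves kept their size. 

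In Rec-1 sgRNA against the library labelled Rec-1 control, 3 of the 6 tested genes other than EGR2 were called, all as lower. Of all genes 19.2% were called, 9.11% as lower. FOS fell by 3.0 (SE 0.19, limma adjusted p = 0.00387), EGR1 fell by 1.76 (SE 0.25, adjusted p = 0.0208) and JUNB fell by 1.18 (SE 0.23, adjusted p = 0.0415). IER2 (−0.60, SE 0.28, limma adjusted p = 0.202), DUSP2 (−0.73, SE 0.48, adjusted p = 0.325) and JUND (0.89, SE 0.48, adjusted p = 0.250) did not pass. FOS passed in each of the 12 alternatives fitted, EGR1 in 8 of 12 and JUNB in 5 of 12. EGR2 entered the fit only because it is high in the library labelled Rec-1 control, so its difference of −1.64 is read from the fit without the filter alone (SE 0.17, limma adjusted p = 0.0273).

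Rec-1 sgRNA against Jeko sgRNA sets 2 libraries of each line side by side without either control. FOS was lower by 10.8-fold in mean FPKM, a difference of −2.79 (SE 0.15, limma adjusted p = 0.00207), and EGR1 by 4.73-fold, a difference of −2.10 (SE 0.20, adjusted p = 0.00676). These 2 were the only members called, where 25.9% of all genes were, 13.0% as lower. JUNB (−0.77, SE 0.19, limma adjusted p = 0.0552) and IER2 (−0.71, SE 0.23, adjusted p = 0.0938) were lower in both Rec-1 libraries than in both Jeko libraries without passing, as were FOS and EGR1 and 37.0% of all genes. JUND was higher (1.07, SE 0.39, limma adjusted p = 0.119), also without overlap, as were 32.9% of all genes. EGR2 (0.10, SE 0.16, limma adjusted p = 0.670) and DUSP2 (−0.30, SE 0.39, adjusted p = 0.597) overlapped between the lines. FOSB, tested only without the filter on low values, differed by 1.14 (SE 0.13, limma adjusted p = 0.0275). FOS passed in each of the 13 alternatives fitted and EGR1 in 10 of 13, the exceptions being the fits without Jeko sgRNA 1, without Jeko sgRNA 2 and without the labelled Rec-1 sgRNA 2 (limma adjusted p = 0.0787, 0.0681 and 0.0539). NR4A1 was higher in the libraries labelled Rec-1 sgRNA by 1.94 (SE 0.40, limma adjusted p = 0.0381).

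**Figure D4:**
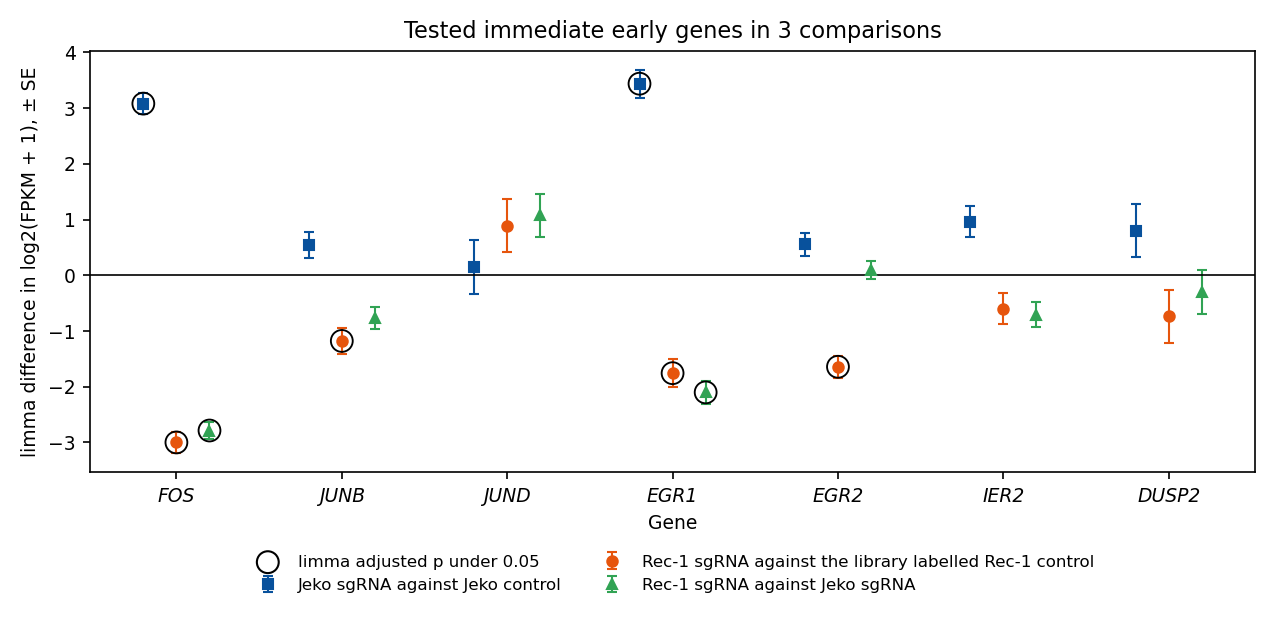
limma difference in log2(FPKM + 1) with its SE for the 7 tested genes in 3 comparisons; a ring marks an adjusted p under 0.05. FOS and EGR1 are ringed above 0 in Jeko (3.08 and 3.44) and below 0 in the other 2 comparisons; the ring of EGR2 belongs to a gene that passed the filter only through the labelled Rec-1 control.

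The difference from the own-line control was itself tested between the lines. This interaction passed for FOS (−6.08, SE 0.27, limma adjusted p = 0.00495) and EGR1 (−5.20, SE 0.35, adjusted p = 0.00845), 2 of the 6 tested members other than EGR2, where 6.94% of all genes passed. Both were lower in Rec-1 relative to Jeko, as were 3.25% of all genes. JUNB (−1.71, SE 0.33, limma adjusted p = 0.0727), IER2 (−1.56, SE 0.39, adjusted p = 0.124), DUSP2 (−1.53, SE 0.67, adjusted p = 0.291) and JUND (0.74, SE 0.68, adjusted p = 0.586) did not pass. For EGR2 the interaction was −2.20, with a limma adjusted p of 0.0493 in the fit without the filter (SE 0.24). Without Jeko sgRNA 2 neither FOS nor EGR1 passed (limma adjusted p = 0.0511 and 0.0584), and without Jeko sgRNA 1 EGR1 did not (0.0578). In a single effect of sgRNA over both lines the opposite signs met. limma called 0 members, 0 at an unadjusted p under 0.05 as well, and 0.246% of all genes (21.1% unadjusted), with differences of 0.04 for FOS (SE 1.30, adjusted p = 0.986) and 0.84 for EGR1 (SE 1.12, adjusted p = 0.654). Without the Jeko control the difference was −3.0 for FOS and −1.76 for EGR1, as within Rec-1 as labelled. Without the labelled Rec-1 control it was 3.08 for FOS and 3.44 for EGR1, as within Jeko.

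The 2 empty-vector controls differed from each other in these genes, as they did in 286 of all tested genes at 2-fold or more. All 10 members were higher in the library labelled Rec-1 control than in the Jeko control. Their median difference was 1.06 against −0.01 for all genes tested, which leave out FOSB, JUN and EGR3. The share of all genes that were higher in the labelled Rec-1 control was not computed. In ratios of FPKM, FOS was 18.2-fold higher, EGR1 12.1-fold, EGR2 23.7-fold, EGR3 22.7-fold and JUN 8.31-fold. FOSB was 3.31-fold higher, DUSP2 2.47-fold, JUNB 1.96-fold, IER2 1.84-fold and JUND 1.28-fold. On the log2(FPKM + 1) scale 3 of the 6 tested members other than EGR2 were at least 2-fold apart (FOS 3.30, EGR1 3.09 and DUSP2 1.23), where 2.51% of all genes were (1.68% as higher), and 72 of 9696 protein-coding genes, or 0.743%. FOS and EGR1 ranked 3 and 4 from the highest difference among these 9696, and 58 and 61 among all 11400 genes tested. NR4A1 differed by 0.85 in the same direction. With 1 library each, this comparison has no replicate check. The Jeko control was the lowest of the 6 libraries for 9 of the 10 genes (all but JUNB), among them FOSB, JUN and EGR3, which were not tested. The share of all genes for which it was the lowest was not computed, so the count is not set apart from them. All comparisons within Jeko rest on the Jeko control.

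**Figure D5:**
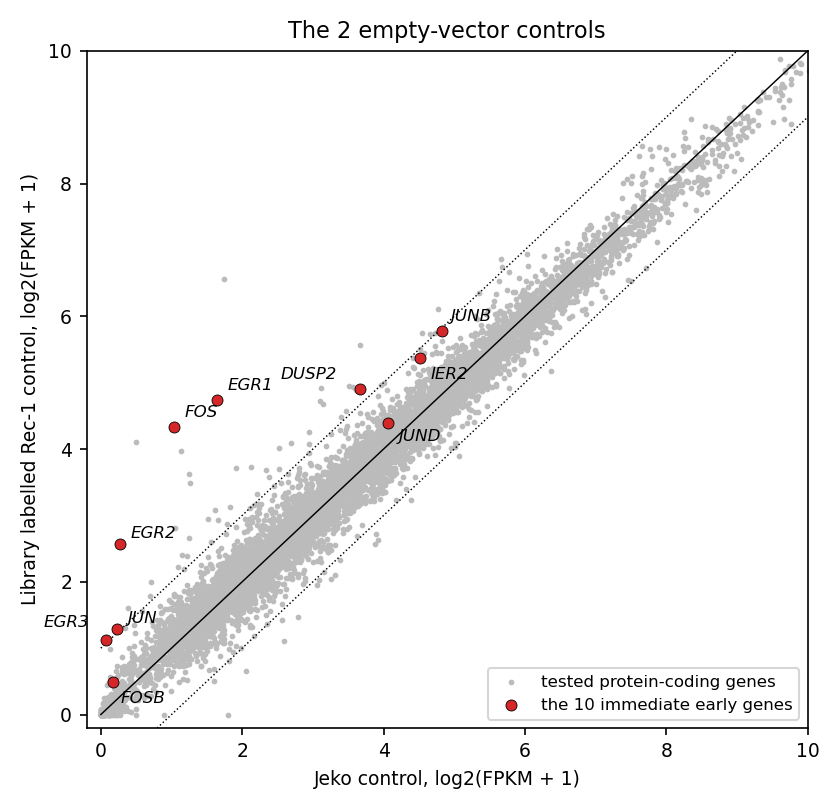
log2(FPKM + 1) in the library labelled Rec-1 control against the Jeko control for tested protein-coding genes up to 10 on either axis (grey) and the 10 immediate early genes (red); the solid line marks equality and the dotted lines 2-fold. FOS, EGR1, EGR2 and DUSP2 lie above the upper dotted line with 3.30, 3.09, 2.30 and 1.23. JUN and EGR3, which were not tested, lie just above it, both with 1.06.

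Related genes were taken from 5 lists. Among 24 other immediate early and early response genes, 19 were tested. In Jeko sgRNA against control limma called 0 of them, where 0.439% of all genes were called. Their median difference was 0.01 against 0.00 for all genes. In Rec-1 sgRNA against Jeko sgRNA it called 1 as higher (NR4A1) and 5 as lower, where 25.9% of all genes were called and 13.0% as lower, with a median of −0.36 against −0.03 for all genes. TNFAIP3, an inhibitor of NF-κB signalling, was 19.5, 15.9 and 22.0 FPKM in the Jeko control, sgRNA 1 and sgRNA 2 and 24.1, 1.69 and 1.77 in the libraries labelled Rec-1 control, sgRNA 1 and sgRNA 2 (difference −2.85, SE 0.22, limma adjusted p = 0.00400). IER5, a relative of IER2, fell by 2.08 in the same test (SE 0.20, limma adjusted p = 0.00659). GADD45B, a stress sensor, had the opposite sign to FOS in Jeko, with 65.3 FPKM in the control, 25.9 in sgRNA 1 and 41.6 in sgRNA 2 (limma adjusted p = 0.453). RGS1, a regulator of G-protein signalling, likewise had 11.7 FPKM in the Jeko control against 3.92 (sgRNA 1) and 4.01 (sgRNA 2) (limma adjusted p = 0.200).

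Of 9 other AP-1 and bZIP partner genes 5 were tested. In Jeko 0 were called, where 0.439% of all genes were. Called lower in Rec-1 sgRNA against Jeko sgRNA was 1 gene, where 13.0% of all genes were. That gene was ATF3, a stress-induced repressor, listed at 0 in both libraries labelled Rec-1 sgRNA and at 20.7, 4.29, 18.0 and 24.1 FPKM in the Jeko control, Jeko sgRNA 1, Jeko sgRNA 2 and the library labelled Rec-1 control (limma adjusted p = 0.0346). It did not share the order of FOS in Jeko. JDP2, a repressor of AP-1, was 4.07, 0.446 and 2.61 FPKM in the Jeko libraries (limma adjusted p = 0.548). ATF2, a partner of JUN, was 9.96 FPKM in the Jeko control against 12.8 (sgRNA 1) and 18.7 (sgRNA 2) (limma adjusted p = 0.515).

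EGR4, NAB1 and NAB2 complete the EGR system, of which 2 were tested. NAB2, a corepressor that is itself induced by EGR1, was 7.57, 15.4 and 11.6 FPKM in the Jeko control, sgRNA 1 and sgRNA 2 and 25.5, 14.0 and 9.25 in the libraries labelled Rec-1 control, sgRNA 1 and sgRNA 2. These levels were ordered like those of DUSP2, but NAB2 passed neither in Jeko (limma adjusted p = 0.484) nor in Rec-1 sgRNA against Jeko sgRNA (limma adjusted p = 0.605). NAB1, its relative, rose by 0.90 in the latter (SE 0.14, limma adjusted p = 0.0215).

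All 22 genes for MAPK signalling, SRF, its partners and CREB1 were tested. In Jeko sgRNA against control 0 of them were called, where 0.439% of all genes were. Their median difference was 0.27 against 0.00 for all genes. The 2 lowest p-values there were those of ELK3, an SRF partner (4.57 FPKM in the control, 9.99 and 10.8 with sgRNA, limma adjusted p = 0.291), and BRAF, a kinase upstream of ERK (2.31, 4.70 and 7.16 FPKM, adjusted p = 0.397). In Rec-1 sgRNA against Jeko sgRNA 3 of the 22 were called higher and 2 lower, a share near the 25.9% of all genes, among them RPS6KA1, a kinase activated by ERK (rose by 1.45, SE 0.18, limma adjusted p = 0.0130), and ELK3 (fell by 2.35, SE 0.15, adjusted p = 0.00264).

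Of 10 MAPK feedback inhibitors 7 were tested. In Jeko sgRNA against control 0 were called, where 0.439% of all genes were. In Rec-1 sgRNA against Jeko sgRNA, 3 were called, 1 higher and 2 lower. Of all genes 25.9% were called there, 13.0% as lower. SPRY1 and SPRY2, inhibitors of receptor signalling to ERK, stood at 4.69 and 5.76 FPKM in Jeko sgRNA 1 and at 5.88 and 6.60 in Jeko sgRNA 2. In those labelled Rec-1 sgRNA 1 and 2, SPRY1 was listed at 0 in both and SPRY2 was at 0.110 and 0.207 FPKM (limma adjusted p = 0.00258 and 0.00234 against Jeko sgRNA). DUSP10, a phosphatase of JNK and p38, rose by 1.495 (SE 0.22, limma adjusted p = 0.0173). SPRED2, an inhibitor of RAF activation, had 1.74 FPKM in the Jeko control against 3.08 (sgRNA 1) and 6.58 (sgRNA 2) (limma adjusted p = 0.485).

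Over the 6 libraries, the tested genes with patterns most like those of the members were named by Pearson's r of log2(FPKM + 1), a description in which the libraries share 2 lines and 2 controls. EGR1 was most like IER2 (r = 0.963), followed by KIDINS220 (0.957) and FOS (0.947). IER2 itself was closer to MIR1248 (0.973) than to EGR1. How high an r 6 libraries give by accident among 11400 genes was not tested. For DUSP2 the nearest gene was NAB2 (0.936), for JUNB ANXA1 (0.971) and for JUND CNNM2 (0.996). The nearest gene to EGR2 was HIST1H2BK (0.977), at 358.5 FPKM in the library labelled Rec-1 control and 10.5 to 24.7 in the other 5. For FOS the nearest were the microRNA gene MIR6840 (0.992) and YTHDC2 (0.975), of which YTHDC2 ranged only from 3.56 to 4.31 FPKM.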

How the data were processed

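RNA of 6 libraries was sequenced after Illumina TruSeq preparation, per the labels' protocols. The authors deposited 1 table of FPKM, which per the file headers has 1 column for each library. TopHat and hg19 are named in the submitters' processing notes, and the program that computed FPKM, the annotation and any strand setting are not given in the sources used here. Columns were matched to samples by line and guide number.

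Values were used as log2(FPKM + 1), and the 11400 genes whose mean reached 1 FPKM were tested. limma 3.58.1 in R 4.3.3 (lmFit, eBayes with trend) was fitted with 1 mean for each line and condition, or with line and sgRNA as terms. P-values were adjusted by Benjamini-Hochberg over all genes tested, with 0.05 as the threshold. The scripts were tested on simulated data. The members and lists were chosen with earlier results of these data known. All members and NR4A1 are named, with the 2 genes of each list that had the lowest p in Jeko and the 2 in Rec-1 sgRNA against Jeko sgRNA, and the genes nearest in pattern, up to 3 for a member. RPS4Y1 falls outside that rule and was named after its values were seen. Gene positions are from GENCODE (GRCh37), which gave 1 gene for 21188 rows. One gene was left out of the marker lists used here. The 28 gene names that a spreadsheet had turned into dates were kept as they stand. Other steps ran in Python 3.11.15 with scipy 1.17.1, numpy 2.4.6, pandas 2.3.3 and, for plots, matplotlib 3.10.9.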

Additional observations from a re-analysis of the deposited data

Results flagged for a closer look

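The difference between the sgRNA libraries and the own-line control was not the same in the lines as labelled, by limma's interaction test. This held at FOS (−6.08, limma adjusted p = 0.00495), EGR1 (−5.20, limma adjusted p = 0.00845) and EGR2 (−2.20). The library labelled Rec-1 control stood with the Jeko libraries (r = 0.989 with the Jeko control), and its part in these results was not tested. EGR2 passed the filter on low values only through the library labelled Rec-1 control, and without that filter its limma adjusted p was 0.0493. JUN and EGR3, under the filter on low values, were higher in both Jeko sgRNA libraries and lower in both libraries labelled Rec-1 sgRNA than in their controls, a gap of −0.99 for JUN and −0.69 for EGR3. In Jeko sgRNA 1, JUN was above its control by less than the counting error. Fitted without that filter, these gaps did not pass (limma adjusted p = 0.174 and 0.0978).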

How the results depend on the processing

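Each line has 1 control and 2 guides, so a lone control was assumed to vary like the guides, and counting depth limits FOSB, JUN and EGR3. FOS in Rec-1 sgRNA against Jeko sgRNA kept its direction and call in all 13 alternatives fitted. The calls of FOS and EGR1 in Jeko held in 6 of 12, and leaving out 1 library moved the members called there between 0 and 2; without the filter on low values 0 were called. The guide deviations of the lines correlated at 0.0998 (0.215 among protein-coding genes), and the labels do not say whether guides of 1 number match. Counts of members below include EGR2. With that number as a replicate block, limma called 0 members in Jeko, 9 genes over both lines (28 without it) and 428 in the interaction (791 without it). Without the filter the effect over both lines called 12 genes, adjusted for transcript length 14, and among protein-coding genes only 0, where Jeko called 3. With a mean of at least 5 FPKM, 1549 genes were called in Rec-1 sgRNA against Jeko sgRNA, 1083 (2 members) against the labelled Rec-1 control and 318 in the interaction.

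Leaving out 1 library in turn gave 11 to 2180 genes and 0 to 4 members over both lines, 803 to 2940 genes and 1 to 2 members in Rec-1 sgRNA against Jeko sgRNA, 657 to 2180 genes and 1 to 4 members against the labelled Rec-1 control, and 75 to 454 genes and 0 to 2 members in the interaction. The difference over both lines then ranged from −3.0 to 3.08 for FOS, −1.76 to 3.44 for EGR1, −1.64 to 0.56 for EGR2, −1.18 to 0.54 for JUNB, −0.60 to 0.96 for IER2, −0.73 to 0.80 for DUSP2 and −0.44 to 0.65 for NR4A1, which was −0.0062 when adjusted for transcript length. In Rec-1 sgRNA against Jeko sgRNA it ranged from −0.0496 to 0.25 for EGR2 and −0.73 to 0.14 for DUSP2.

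Genes at least 2-fold apart from the control numbered 1208 in Jeko sgRNA 1, 1356 in Jeko sgRNA 2 and 450 between the controls with a pseudocount of 0.1 FPKM. Adjusted for transcript length they numbered 417, 510 and 182, with 3 members in Rec-1 sgRNA 2, and among protein-coding genes 367, 510 and 72. At 1.5-fold they numbered 2552, 2939 (4 members) and 760, and 5940 and 5690 in Rec-1 sgRNA 1 and 2. The cause of these shifts was not tested.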
